A study of Mus musculus with 6 samples.

Results

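Notch signalling genes were described in hypothalamus RNA from 3 aged mice (22 months old) and 3 young mice (12 weeks old). The 10 genes are the receptors Notch1, Notch2, Notch3 and Notch4, the ligands Dll1 and Jag1, and the effectors Hes1, Hes5, Hey1 and Hey2. They were picked by symbol as core genes of the pathway out of 18228 genes in the count table, all 10 were found, and all 10 were among the 14702 genes with enough reads to test. The series asked which genes accompany cognitive decline with age, and the mice were drawn at random from groups that had gone through a behavioural experiment. The labels name no genotype, strain, sex, treatment or batch, and each library came from 1 mouse. The list was proposed with the aged against young difference in view. That difference is therefore given for the 10 genes as a description, without a test, while the other genes of the pathway were tested. Statements that any of the 10 passed or lost a call describe where it fell in the fit over all genes. They are not read as evidence.

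Notch receptors are single-pass membrane proteins that are switched on by ligands of the Delta and Jagged families on a neighbouring cell. Ligand pulling exposes the receptor to an ADAM protease and then to gamma-secretase, and the freed intracellular domain enters the nucleus, joins the DNA-binding protein RBPJ and a Mastermind coactivator, and turns on Hes and Hey genes. Hes and Hey proteins are basic helix-loop-helix repressors that hold down proneural genes. In adult brain the pathway is known from astrocytes and neural stem cells (Notch1, Notch2, Hes5), from mural cells, which are pericytes and vascular smooth muscle (Notch3), and from endothelium (Notch4, Hey1, Hey2).

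The sequence that links receptor to effector is the RBPJ site, and it stands in the promoters of 2 of the effector genes. RefSeq promoters (build GRCm38.p6) were matched by symbol for 8 of the 10 genes; Hes1 and Hey1 were not matched. The 250 bases before each start were searched on both strands for GTGGGAA, the high-affinity RBPJ motif, whose reverse complement is TTCCCAC. Hes5 held 2 matches, whose first bases lie 226 and 83 bases before the start, and Hey2 held 1, at 207. The promoters of the other 6 genes (Notch1 to Notch4, Dll1, Jag1) held no match in this window. Of all 32851 promoters of this length, 5.42% held 1 or more and 0.161% held 2 or more. Among the other pathway genes, 4 of the 52 matched held one. That last count is per gene, over all its promoters, so it is not on the same footing as the shares per promoter. The stretch from 250 to 31 bases before the start is shown for the Hes5 promoter (chr4:154960673-154960892, plus strand) and the Hey2 promoter (chr10:30842814-30843033, minus strand). Both promoters carry the motif, and whether it bears on the level of either gene was not tested. Each is written 5′ to 3′ with the motif in capitals.
Hes5: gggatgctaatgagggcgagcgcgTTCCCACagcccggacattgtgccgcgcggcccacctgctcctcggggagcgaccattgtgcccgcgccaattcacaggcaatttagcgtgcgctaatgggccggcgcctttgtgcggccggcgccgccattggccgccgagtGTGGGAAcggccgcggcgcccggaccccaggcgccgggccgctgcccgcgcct
Hey2: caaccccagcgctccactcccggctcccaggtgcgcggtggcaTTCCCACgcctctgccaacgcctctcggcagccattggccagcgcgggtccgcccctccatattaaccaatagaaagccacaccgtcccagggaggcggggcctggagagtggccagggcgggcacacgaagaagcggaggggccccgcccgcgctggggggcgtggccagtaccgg
A match is a string in the DNA and was not measured as a bound site.

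Libraries held 17208291 to 18884403 counted reads. Levels are given as CPM, read counts relative to the TMM-scaled library total, and differences as log2 fold changes, aged relative to young, with a standard error (SE) from edgeR's quasi-likelihood fit over all genes. Of the 14702 genes, 6.86% passed at an adjusted p under 0.05, with 474 higher and 535 lower in aged libraries; scaling by total counts alone gave 627 and 446, and log2(FPKM + 1) gave 616 and 293. Leaving out 1 library moved the total of 1009 to between 150 and 1633. The 4 Y-linked genes summed to 184 to 203 CPM in aged and 1.38 to 1.88 in young libraries, so the groups differ in Y-linked expression as well as in age, and the 2 cannot be told apart. Hypothalamic markers (Avp, Oxt, Pmch, Hcrt, Agrp, Pomc, Sim1 and Nkx2-1) were all detected, and summed to 1115 to 1222 CPM in aged and 1179 to 1341 in young libraries. Of these 8, 1 passed as higher and 1 as lower, beside the 6.86% of all genes. Cortical markers (Neurod6, Slc17a7, Tbr1) summed to 204 CPM in young replicate 2 and 73.0 in young replicate 3, against 20.9 to 32.0 CPM in the other 4 libraries. Thalamus markers (Tcf7l2, Prkcd, Rora, Slc17a6) summed to 398, 502 and 307 CPM in young replicates 1, 2 and 3 and to 275 to 333 CPM in aged libraries. Whether uneven tissue content sets any of the differences was not tested.

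Hes5, Notch1 and Jag1 were the Notch genes with the clearest lower levels in aged hypothalamus, and Hes1 had the largest difference in the other direction. Hes5, Notch1 and Jag1 passed the threshold over all genes, 3 of 10, beside 6.86% of all genes; 3.64% of all genes passed in that direction. Every aged library lay below every young library for 5 of the 10 (Hes5, Notch1, Notch3, Jag1 and Notch2), beside 16.2% of all genes in that direction and 31.7% in either. None of the 10 had every aged library above every young one, beside 15.5% of all genes, and none passed as higher, beside 3.22%. Since this contrast was in view when the genes were picked, nothing is read from these shares. The median log2 fold change was -0.16 over the 10 genes and -0.003 over all genes tested.

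**Figure D1:**
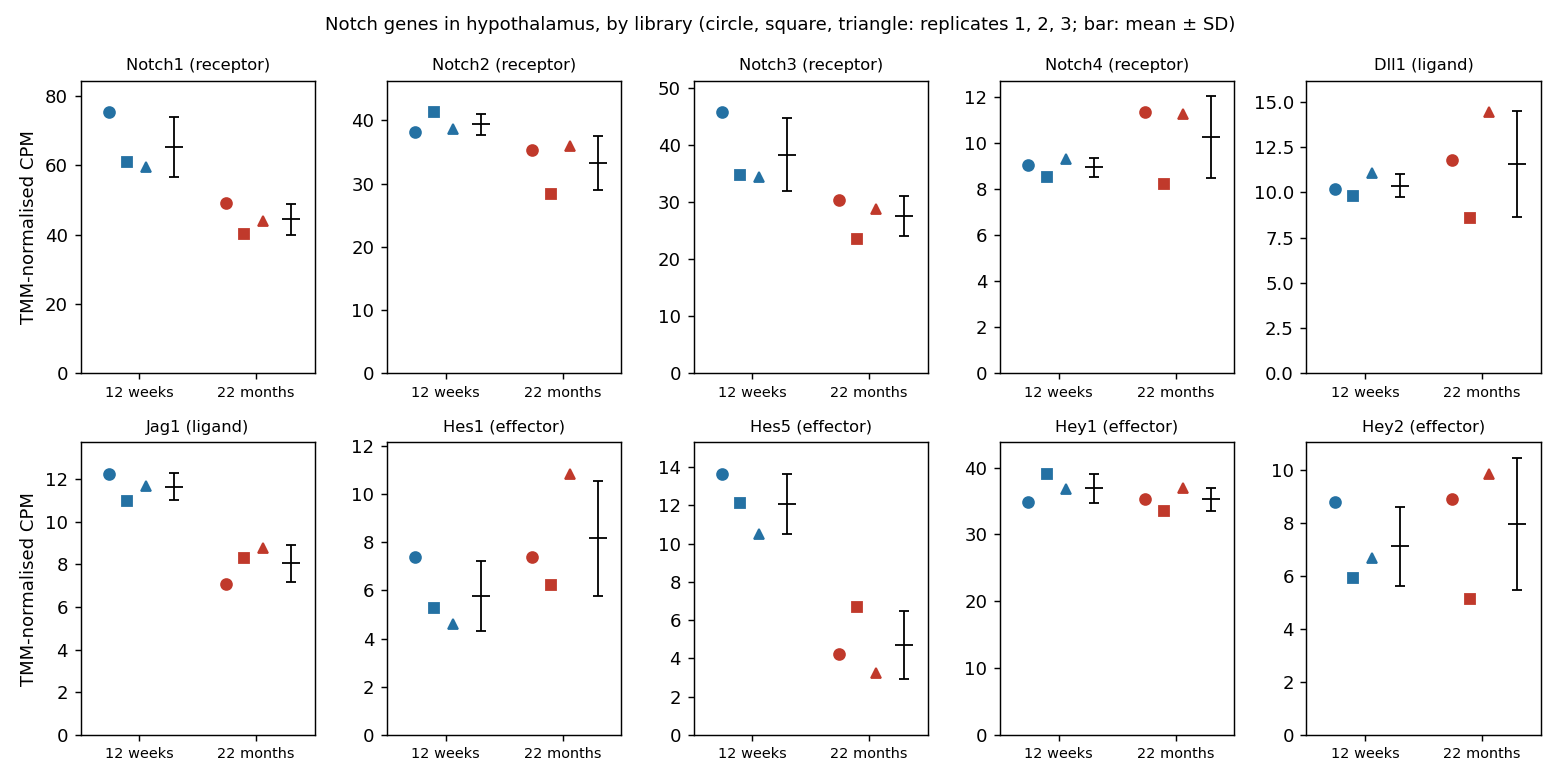
TMM-normalised CPM of the 10 Notch genes in each library (vertical axes from 0, own scale per gene), young mice in blue and aged mice in red, with the mean ± SD of 3 libraries as a black bar. The aged and young points are separate for Notch1, Notch2, Notch3, Jag1 and Hes5 and overlap for the other 5 genes.

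Notch1, the receptor best known from neural stem cells and astrocytes, stood at 49.1, 40.2 and 44.1 CPM in aged replicates 1, 2 and 3 and at 75.3, 60.9 and 59.6 CPM in young replicates 1, 2 and 3. All aged libraries were lower, with young replicate 1 the highest of the 6. Its log2 fold change was -0.55 ± 0.11 (SE), from 65.3 ± 8.68 to 44.5 ± 4.44 CPM (SD, n = 3 each). The call was lost without young replicate 1, where the log2 fold change was -0.43, and without aged replicate 3, where it was -0.54.

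Notch3, the receptor of mural cells, had a similar order of libraries. It was at 30.3, 23.6 and 28.8 CPM in the aged replicates and 45.8, 34.8 and 34.4 CPM in the young ones, with young replicate 1 again highest and aged replicate 2 lowest. The groups did not overlap, the log2 fold change was -0.48 ± 0.13 (SE), and the gene passed in DESeq2 but not in edgeR, unless replicate number was a block.

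Notch2, expressed in glia and other cell types, differed less. Its levels were 35.4, 28.4 and 36.0 CPM in aged and 38.2, 41.2 and 38.7 in young libraries, a narrow separation that rests on a gap between 36.0 and 38.2 CPM. The log2 fold change of -0.24 ± 0.10 (SE) did not pass. Notch4, the endothelial receptor, was the member of the family with a positive value: 11.3, 8.20 and 11.3 CPM in aged against 9.03, 8.50 and 9.29 in young libraries. Aged replicate 2 lay below all young libraries, so the groups overlapped, and the log2 fold change was 0.20 ± 0.14 (SE).

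Because FPKM divides reads by gene length, it allows the receptors to be summed. Together the 4 receptors came to 13.9, 11.2 and 13.3 FPKM in aged and 18.1, 15.5 and 15.5 FPKM in young libraries, which do not overlap. Notch1 made up 37.0 ± 1.71% of that sum in aged and 41.4 ± 1.43% in young libraries (SD, n = 3 each), and Notch4 made up 12.1 ± 0.81% and 8.19 ± 0.83%. Neither share overlapped between the groups. The share of Notch3 was 25.6 to 26.2% in aged and 26.4 to 29.8% in young libraries, a narrow gap, and that of Notch2 overlapped (24.3 to 25.9% and 19.8 to 24.9%). A share can move because another receptor in the sum moved.

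Of the 2 ligands, Jag1 was lower in aged libraries, while the groups overlapped for Dll1. Jag1, a Jagged-type ligand, was at 7.06, 8.31 and 8.77 CPM in aged and 12.2, 11.0 and 11.7 in young libraries, with a log2 fold change of -0.53 ± 0.12 (SE) and no overlap. This call was the least stable of the 3: it was lost in 7 of 16 alternatives, namely both FPKM fits, the fit with the gene length trend removed, and without aged replicates 1 or 3 or young replicates 1 or 3. Dll1, a Delta-type ligand, was at 11.8, 8.57 and 14.4 CPM in aged and 10.2, 9.82 and 11.1 in young libraries. The aged libraries surrounded the young ones on both sides, and the log2 fold change of 0.16 ± 0.17 (SE) became -0.022 without aged replicate 3.

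Among the effectors, Hes5 had the largest difference of the 10 genes. Hes5, the repressor that marks Notch activity in neural stem cells and glia, was at 4.20, 6.70 and 3.23 CPM in aged and 13.7, 12.1 and 10.5 in young libraries. These values rest on 75, 129 and 56 reads in aged and 233, 211 and 189 reads in young libraries. Every aged library was well under the lowest young one, and the log2 fold change was -1.35 ± 0.23 (SE), which is 2.55-fold lower in aged libraries. Only 0.803% of all genes tested had a larger absolute log2 fold change. The call was lost without aged replicate 1 (-1.26) and without young replicate 1 (-1.25).

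Hes1, the relative of Hes5 that many signals besides Notch induce, pointed the other way with wide scatter. Its levels were 7.40, 6.23 and 10.8 CPM in aged and 7.38, 5.29 and 4.62 in young libraries, so aged replicate 3 was highest and aged replicate 2 lay within the young range. The log2 fold change was 0.50 ± 0.23 (SE) and did not pass.

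Hey1 and Hey2, the Hey-type repressors known from vessels, showed no separation. Hey1 was at 35.3, 33.4 and 36.9 CPM in aged and 34.8, 39.1 and 36.8 in young libraries, a log2 fold change of -0.07 ± 0.08 (SE). For Hey2 the values were 8.91, 5.14 and 9.87 CPM in aged and 8.79, 5.92 and 6.68 in young libraries, a log2 fold change of 0.16 ± 0.24 (SE) that became -0.015 without aged replicate 3. Summed as FPKM, the 4 effectors came to 23.8 ± 2.49 in aged and 24.0 ± 0.932 in young libraries (SD, n = 3 each). Within that sum Hes5 took 4.18, 7.40 and 2.87% in aged and 12.5, 11.5 and 10.6% in young libraries, and Hey1 took 62.3 ± 3.74% and 63.2 ± 5.42%. These sums depend on the gene length behind the deposited FPKM, which for Hes5 is 3.15 times its exon length in the GENCODE M21 annotation. With GENCODE lengths, a choice made after seeing the data, the effectors summed to 19.5, 19.7 and 21.3 FPKM in aged and 25.8, 24.3 and 22.8 FPKM in young libraries, which did not overlap. Hes5 then took 15.8, 25.4 and 11.2% of the sum in aged and 38.2, 35.9 and 34.0% in young libraries, and the share of Hey1 no longer overlapped (53.0 to 55.5% and 40.7 to 49.6%). The receptor sums did not overlap with either set of lengths. With GENCODE lengths Notch3, and not Notch1, had the largest mean share of the receptor sum. Notch3 took 31.3% and Notch1 28.8% in aged libraries, and 33.5% and 32.5% in young ones.

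The libraries of a group were not equal for these genes. For 8 of the 10 genes, all but Jag1 and Hes5, aged replicate 2 was the lowest of its group, and for Hes5 it was the highest. Young replicate 1 was the highest of its group for 6 of the 10. How often each library held that place over all genes was not computed, so neither count is read as a trait of the Notch genes. Aged replicate 2 also stood apart from its group in the comparison of replicate counts. The chi-square per degree of freedom was 12.1 against aged replicate 1 and 10.1 against aged replicate 3, and smaller between aged replicates 1 and 3. Young replicate 2 likewise gave 11.3 against young replicate 1 and 7.76 against young replicate 3. Between young replicates 1 and 3 the value was 5.63. The coefficient of variation was larger in the aged group for 7 of the 10 genes, beside 49.5% of all genes tested. It was widest for Hes5 in aged libraries (38.0%, against 13.0% in young ones) and narrowest for Notch2 in young libraries (4.16%).

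By deposited FPKM, Hey1 was the most abundant of the 10 genes, at a mean of 14.96 over the 6 libraries, and Jag1 the least, at 0.838. Between them stood Notch1 (5.77), Hes1 (4.02), Notch3 (3.93), Notch2 (3.45), Dll1 (3.23), Hey2 (2.98), Hes5 (1.95) and Notch4 (1.45). Among the 9 pairs of neighbours in that order, Hey1 over Notch1 and Notch4 over Jag1 had library ranges that did not overlap, and the other 7 pairs overlapped. Of all 45 pairs of genes, 26 did not overlap: Notch1 lay apart from Notch2, Dll1, Hey2 and Hes5, for example, and Notch2 and Notch3 from Notch4. The order also turns on the gene length. The length implied by the deposited FPKM was 4295 bases for Hes5 and 11717 for Jag1, while the exons of these genes in GENCODE M21 (GRCm38) cover 1363 and 5827 bases. With the GENCODE lengths, Hes5 came to 6.14 FPKM, next after Hey1 (11.03), and Jag1 to 1.69 FPKM, above Hey2 (1.64) and Notch4 (1.19). Notch1 then came to 3.84 FPKM, under Notch3 (4.06). Its range overlapped those of Notch2, Dll1 and Hes5 and stayed apart from that of Hey2. Notch2 and Notch3 stayed apart from Notch4. Fold changes between the groups in the main count fit do not depend on the gene length. Both FPKM fits and the fit with the gene length trend removed do use the deposited length. Jag1, at -0.53 in the main fit, came to -0.23 with log2(FPKM + 1), -0.45 with log2(FPKM + 0.1) and -0.42 with the trend removed.

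**Figure D2:**
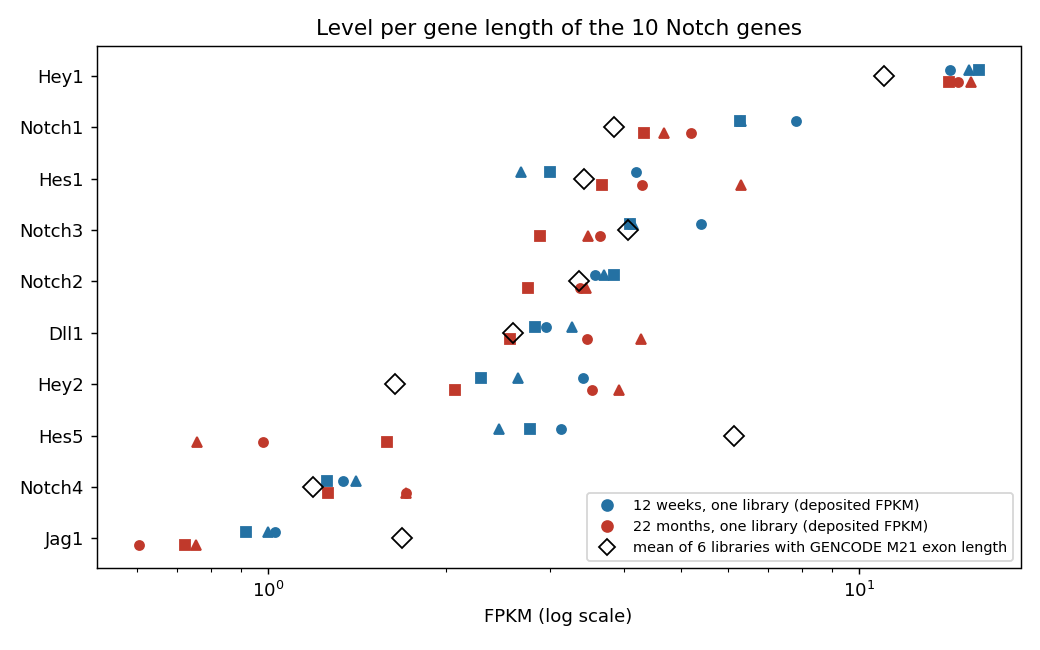
Deposited FPKM (log axis) of the 10 Notch genes in each library, young in blue and aged in red, with the mean of the 6 libraries recomputed from GENCODE M21 exon lengths as open diamonds. Hey1 lies above the rest with either length, and the diamond of Hes5 (6.14) lies far to the right of its deposited values (0.758 to 3.13).

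Beyond the 10 genes, a list of 66 further Notch pathway genes was used, of which 61 had enough reads to test. In edgeR's quasi-likelihood test with Benjamini-Hochberg adjustment over all genes, 1 was higher, 1 was lower and 59 did not pass, which is 2 of 61 beside 6.86% of all genes. Of the 61, 12 had an unadjusted p under 0.05, beside 3859 of all 14702 genes tested. The groups did not overlap for 12, which is 19.7% beside 31.7% of all genes. Their median log2 fold change was -0.0090. Their median absolute log2 fold change was 0.13, and that of all genes was 0.13. DESeq2 passed 4 of these pathway genes, beside 1310 of all genes. Limma-voom and both FPKM fits passed 1 each, beside 933, 909 and 925 of all genes. Single libraries decided the edgeR count of 2, which became 5 when aged replicate 2 was left out and 1 when young replicate 2 was. It became 0 when any one of the other 4 was left out. In those 4 fits 8 to 10 of the pathway genes still had an unadjusted p under 0.05, beside 2712 to 3335 of all genes.

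**Figure D3:**
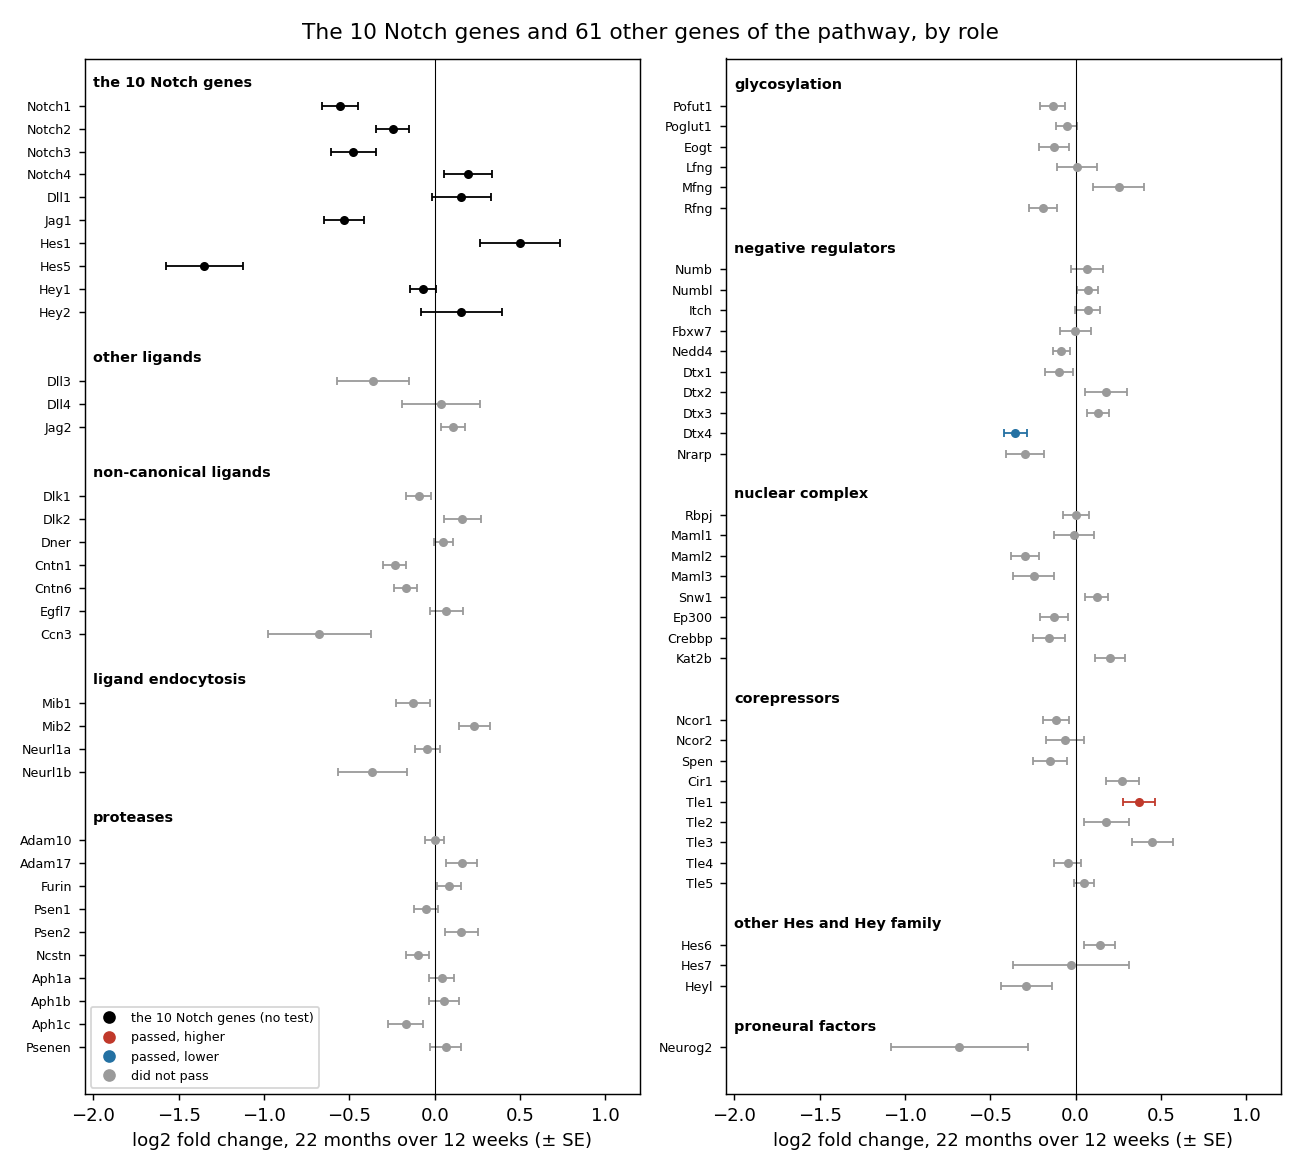
Log2 fold change, aged over young, with its SE for the 10 Notch genes (black, described without a test) and the 61 other tested genes of the pathway grouped by role. Of the others, Tle1 (red) passed as higher, Dtx4 (blue) as lower, and the grey genes did not pass.

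Dtx4, a Deltex-type ubiquitin ligase that acts on Notch receptors, was the steadier of the 2. It was at 61.3, 56.3 and 61.9 CPM in aged and 80.4, 73.7 and 75.1 in young libraries, which are far apart for their spread. The log2 fold change was -0.35 ± 0.07 (SE; edgeR adjusted p = 0.0194), and over the alternatives the adjusted p ran from 0.00236 to 0.0725. It was lost without aged replicates 1 or 3 or young replicates 1 or 3.

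The proneural factors are genes that Hes proteins repress. Neurog2, one of them, was at 0.785, 0.831 and 0.288 CPM in aged and 1.35, 1.03 and 0.723 in young libraries, which overlapped. It averaged 0.635 ± 0.301 CPM in the aged group and 1.04 ± 0.312 CPM in the young group (SD, n = 3 each), with a log2 fold change of -0.68 ± 0.40 (SE; edgeR adjusted p = 0.313). These values rest on 5 to 23 reads per library. Neurog1 and Atoh1 had at most 1 read in any library.

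Tle1, a Groucho-type corepressor that Hes proteins recruit, was higher. Its levels were 51.5, 42.0 and 53.2 CPM in aged and 35.9, 39.2 and 38.2 in young libraries, with aged replicate 2 nearest to the young group (log2 fold change 0.37 ± 0.10 SE; edgeR adjusted p = 0.0490). That call was lost in 9 of 16 alternatives, among them limma-voom, both FPKM fits and 5 of the 6 fits that leave out 1 library, with adjusted p up to 0.174. Tle3, chosen after its values were seen, was at 60.0, 42.3 and 57.6 CPM in aged and 39.0, 40.2 and 37.8 in young libraries and did not pass in edgeR (adjusted p = 0.0531); it passed in DESeq2. The other 3 Tle genes did not pass.

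In 8 role groups with 42 tested genes no gene passed in edgeR. The unadjusted p was under 0.05 for 7, beside 3859 of all 14702 genes tested. DESeq2 passed 1, beside 1310 of all genes, and limma-voom and both FPKM fits passed 0. Those 8 groups are the proneural factors, of which Neurog2 alone was tested, the other ligands, the non-canonical ligands, ligand endocytosis, the proteases, glycosylation, the nuclear complex and the other Hes and Hey genes. The gene with the smallest p in each of the remaining 7 was Dll3, a Delta-type ligand, at -0.36 ± 0.21 (edgeR adjusted p = 0.306), Cntn1, a contactin of neurons and glia, at -0.23 ± 0.07 (edgeR adjusted p = 0.0648, the 1 gene that passed in DESeq2), and Mib2, a ligase for ligand endocytosis, at 0.23 ± 0.09 (edgeR adjusted p = 0.143). In the receptor processing groups it was Adam17, a shedding protease, at 0.16 ± 0.09 (edgeR adjusted p = 0.305), and Rfng, a Fringe glycosyltransferase, at -0.19 ± 0.08 (edgeR adjusted p = 0.168). In the nucleus it was Maml2, a Mastermind coactivator, at -0.30 ± 0.08 (edgeR adjusted p = 0.0631), and Heyl, a Hey-type repressor of mural cells, at -0.29 ± 0.15 (edgeR adjusted p = 0.254). All 7 values are log2 fold changes ± SE. With the gene length trend removed, Maml2 came to -0.11 (edgeR adjusted p = 0.469) and Cntn1 to -0.075 (edgeR adjusted p = 0.482).

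Rbpj, the DNA-binding partner of the cleaved receptor, averaged 38.3 ± 2.58 CPM in the aged group and 38.2 ± 1.40 CPM in the young group, and Adam10, the main shedding protease of Notch, averaged 76.1 ± 0.691 and 76.1 ± 1.81 CPM (SD, n = 3 each). Both were chosen after their values were seen. For Adam10 the SE of the log2 fold change was 0.06 and for Rbpj 0.08. Hes2, Hes3 and Helt, the remaining Hes-type genes, had at most 10 reads in any library and were not tested.

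Markers of the cell types that carry Notch genes differed between the groups too. In bulk tissue, fewer cells of a type and less RNA per cell cannot be told apart. Of 10 astrocyte markers 3 were lower (Sox9, Aqp4 and Slc1a2) and none higher, and their summed level was 3036 to 4084 CPM in aged and 4457 to 4668 in young libraries. Of 9 mural cell markers 3 were lower (Pdgfrb, Vtn and Anpep), with sums of 156 to 191 and 225 to 261 CPM. Every aged library lay below every young one for 6 of these 9 and above for 1, beside 16.2% and 15.5% of all genes. Of 8 endothelial markers 3 were lower (Cldn5, Kdr and Tek), with sums of 186 to 222 and 225 to 272 CPM. Of 5 oligodendrocyte precursor markers 1 was lower (Gpr17), with sums of 290 to 364 and 411 to 485 CPM, and of 8 tanycyte markers 3 were higher (Rax, Col23a1 and Gpr50), with sums of 135 to 156 and 76.0 to 130 CPM. These counts stand beside 6.86% of all genes passing, 3.64% as lower and 3.22% as higher. No marker in these 5 lists was at 0 in all libraries. Some lists outside these 5 differed as well, and others did not. Of 5 fibroblast markers 2 were lower and 0 higher, with sums of 29.5 to 32.8 CPM in aged and 38.2 to 42.8 in young libraries. Of 5 neuron markers and of 5 ependymal markers 0 passed.

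Each Notch gene was therefore also set against the summed level of each of the first 5 lists. The measure was CPM per 1000 CPM of markers, chosen after the data were seen. Against astrocyte markers Hes5 was at 1.05, 2.21 and 0.791 in aged and 2.96, 2.60 and 2.36 in young libraries, still without overlap and 1.96-fold lower on average. Hes5 stayed below the young libraries against all 5 lists, with aged over young ratios of 0.257 (tanycytes) to 0.540 (mural cells). Notch1 against astrocyte markers was at 12.3, 13.3 and 10.8 in aged and 16.3, 13.0 and 13.4 in young libraries, which overlapped. Per astrocyte marker level, Notch2 (aged over young ratio 1.05) and Jag1 (0.872) overlapped as well, while Notch4, Dll1, Hes1 and Hey1, 4 of the 10, lay above all young libraries. Many genes separate on such a measure: the groups did not overlap for 52.6% of all genes against astrocyte markers, 63% against precursor markers, 52.7% against tanycyte markers, 33.5% against endothelial markers and 72.1% against mural cell markers, beside 31.7% for CPM alone.

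For the vascular receptors, Notch3 per 1000 CPM of mural cell markers was 193, 123 and 184 in aged and 175, 155 and 153 in young libraries, a ratio of 1.04 with overlap. Notch4 per 1000 CPM of endothelial markers was 60.9, 37.0 and 51.4 in aged and 33.2, 37.7 and 39.6 in young libraries, a ratio of 1.35 with overlap. Jag1 against endothelial markers was at 38.0, 37.4 and 40.1 in aged and 45.0, 48.7 and 49.9 in young libraries, which did not overlap. Hes1 per endothelial marker level was above all young libraries (28.1 to 49.6 in aged, 19.7 to 27.1 in young). Whether the amount of these cell types sets any of the differences was not tested.

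**Figure D4:**
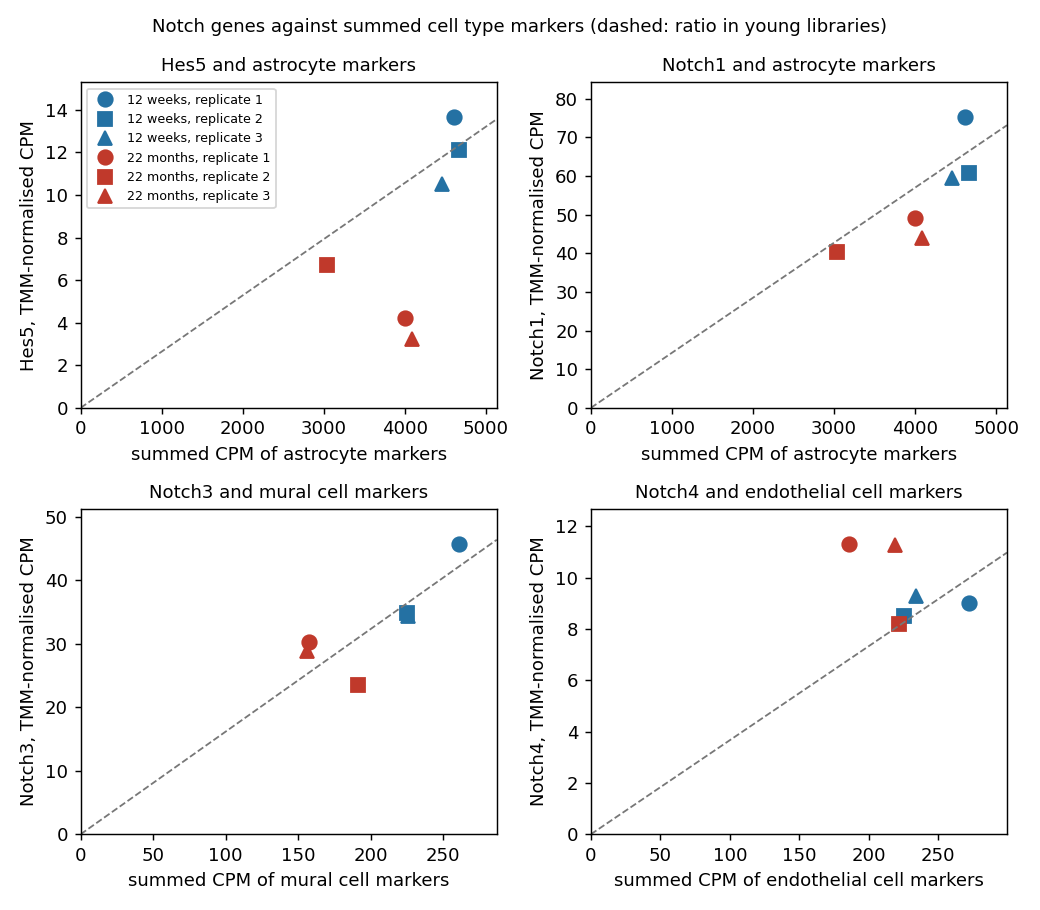
CPM of Hes5 and Notch1 against summed astrocyte markers, of Notch3 against summed mural cell markers and of Notch4 against summed endothelial markers, with 1 point per library (young blue, aged red) and the ratio of the young libraries as a dashed line. The aged points of Hes5 lie under the line, those of aged replicates 1 and 3 by the most. The aged points of Notch1 also lie under it. For Notch3, aged replicates 1 and 3 lie above the line and aged replicate 2 below it.

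Other genes had profiles like those of the 3 Notch genes with the largest differences. Likeness was the root mean square distance between mean-centred log2 CPM over the 6 libraries, among 12829 candidates, so a small distance means the same ups and downs. Nearest to Hes5 were P2ry13, a purine receptor of microglia (0.13), Apcdd1, a Wnt inhibitor (0.18), and Creb5, a transcription factor (0.22). P2ry13 was at 3.92, 6.13 and 3.52 CPM in aged and 11.1, 10.5 and 10.6 in young libraries, with aged replicate 2 again the highest aged library. Nearest to Notch1 were Ksr2, a scaffold of MAP kinase signalling, Npas3, a transcription factor, and Atp1b2, a sodium pump subunit of astrocytes, at 0.05 to 0.06. Nearest to Jag1 were Klf11, a transcription factor, Pth1r, the parathyroid hormone receptor, and Itih5, at 0.04 to 0.07. With 6 libraries in 2 groups, a small distance mostly reflects the shared difference between the groups, which differ in Y-linked expression as well as in age.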

How the data were processed

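Hypothalamus poly(A) RNA (TruSeq Stranded mRNA, per the labels' protocols) was sequenced from 6 mice. The authors deposited unnormalized read counts per gene and library; the authors' FPKM table holds the same reads per gene length and library total (18228 of 18228 genes, relative tolerance 1e-06). Per the submitters' processing notes, Trimmomatic, HISAT2, Cufflinks, HTSeq, DESeq and the build GRCm39 were used. Annotation release, tool versions and strand setting: not given in the sources used here. Therefore reads of overlapping antisense transcripts, which GENCODE M21 lists for Notch1, Notch3, Notch4, Dll1 and Hes5, cannot be separated from those of the gene.

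Counts were tested with edgeR 4.0.16 (R 4.3.3): filterByExpr (minimum count 10, minimum total 15), TMM scaling, quasi-likelihood test of aged against young, Benjamini-Hochberg adjustment over 14702 genes, threshold 0.05. The biological coefficient of variation was 8.52%. DESeq2 1.42.0, limma 3.58.1 (voom; trend on log2 FPKM with pseudocounts 1 and 0.1), other scalings and filters, a replicate block, removal of a gene length trend (loess, span 0.3) and leaving out each library were alternatives. Scripts were tested on simulated data. Replicates were no copies of each other: their counts gave a chi-square of 4.00 to 12.1 per degree of freedom.

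The 10 genes, the pathway list and the marker lists were chosen with earlier results of these data known. 1 gene of the pathway list is not reported here and was left out of its counts. Named pathway genes were every passing one and the smallest p in a role group where none passed; for the 3 Notch genes with the largest change, the 3 nearest profiles with a mean log2 CPM of at least 1 (log2 of CPM + 0.5), leaving out identifier-only, mitochondrial, X- and Y-linked genes. Gene names and promoters came from RefSeq GRCm38.p6.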

Additional observations from a re-analysis of the deposited data

How the results depend on the processing

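Each of the 20 named genes was refitted under 16 alternatives, except that Neurog2 was not tested with a mean CPM of at least 1. Of these 319 values, 286 kept their direction and their side of the threshold, 24 lost the call, 7 gained it and 2 changed sign: Dll1 and Hey2. Leaving out 1 library gave a log2 fold change of -0.022 (without aged replicate 3) to 0.35 (without aged replicate 2) for Dll1 and of -0.015 to 0.41 for Hey2, at the same libraries. Leaving out 1 library moved the number of genes passing to 150 to 1633 of those tested, the number of other Notch pathway genes passing to 0 to 5, and the number of the 10 Notch genes passing to 0 to 3. The 0 for the 10 Notch genes came without young replicate 1 in edgeR. There 5 of the 10 had an unadjusted p under 0.05, beside 3195 of all genes. Of the 10, 1 passed without aged replicate 1 (Notch1) and 1 without aged replicate 3 (Hes5). Under all alternatives that keep the 6 libraries, 2 to 4 of the 10 Notch genes and 1 to 4 of the other pathway genes passed (2 in the reported test, 4 in DESeq2, 1 in limma-voom and 1 in each FPKM fit), Hes5, Notch1 and Dtx4 each time. No alternative moved the median log2 fold change of all genes by over 0.1. With the replicate block, 1190 genes, 3 other pathway genes and 4 Notch genes passed; Notch3, Cntn1 and Mib2 gained the call and Tle1 lost it. The labels do not say that a number pairs the mice, and the deviations of same-numbered libraries correlated at 0.10, 0.04 and -0.15 across genes, so the numbers were not taken as pairs. Reads limit the low genes: Hes5 had 56 to 233 reads per library, and differences of the size seen for Dll1, Hey2 and Hes1 were within the spread of 3 libraries. GENCODE in place of deposited gene lengths, tried after seeing the data, turned the effector sums from overlapping to lower in every aged library.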

Other observations

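Notch signalling is known for holding neural progenitors, and the list of radial glia and progenitor markers was mixed. Of 6 markers, Nes and Vim, intermediate filament genes, were higher (log2 fold change 0.97 ± 0.18 and 0.55 ± 0.08 SE, edgeR adjusted p = 0.0178 and 0.00865), and Pax6, a transcription factor, and Prom1, a membrane glycoprotein, were lower (-0.86 ± 0.13 and -0.74 ± 0.15 SE, edgeR adjusted p = 0.00789 and 0.0230). Sox2 and Fabp7 did not pass. The 4 of 6 that passed stand beside 6.86% of all genes. Their summed level was 156 to 186 CPM in aged and 160 to 170 CPM in young libraries, so the list as a sum overlapped between the groups while its genes went in both directions.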
